A study of Mus musculus with 3 samples.

Results

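The contacts of the splicing factor RBFOX2 with the transcripts of 10 genes of cell junctions and their actin links were mapped in primary mouse hepatocytes. The genes were Ctnnd1, Ctnna1, Ctnnb1, Cdh1, Tjp1, Afdn, Vcl, Enah, Cttn and Myo18a. They were chosen by name for their function, with earlier results of these data known. A cluster of crosslink positions was assigned to a gene when its midpoint lay inside the GENCODE M21 span of that gene on GRCm38, on the same strand. By this rule the 10 genes, out of 10744 genes with a cluster, held 345 of the 87021 clusters in the list (0.397%) and 9926 of the 2850863 counts (0.348%). A count is the number of cDNA starts in a cluster, each taken to mark 1 crosslinked position.

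Hepatocytes came from livers of C57BL6/J mice fed a control diet, were plated overnight and were crosslinked with ultraviolet light at 150 mJ/cm2 before immunoprecipitation of RBFOX2 with its RNA by eiCLIP. There were 3 libraries in a single group, and the labels give 3 livers and 3 pellets for each, whereas the methods of the study describe 3 independent cultures each from a pair of mice. The clusters were called on the 3 libraries together, so no value below has a spread between libraries or a test between conditions, and intervals (Wilson, 95%) cover counting error only. Clusters below 10 counts were absent from the list, so a region without a cluster is one in which none reached that minimum.

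The adherens junction joins neighbouring cells through E-cadherin, whose cytoplasmic tail binds p120 catenin and β-catenin, and α-catenin and vinculin tie this complex to actin. The tight junction seals the space beside it through scaffolds such as ZO-1, and in hepatocytes both border the bile canaliculus. Many of these genes carry exons that epithelial and mesenchymal cells use differently, and RBFOX proteins, which bind GCAUG in RNA, are among the factors known to act on such exons, often from the intron beside them.

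The hepatocyte label was checked against marker genes, by clusters alone since no expression values were used. All 6 hepatocyte markers that were matched in the annotation (of 7 listed) had a cluster, from 11 summed counts for Cyp2e1 to 8110 for Alb. Of 16 markers of Kupffer cells, endothelial cells, stellate cells and cholangiocytes, 4 had one (25%), with at most 24 counts except for Reln, a stellate cell gene, with 150. Of all protein-coding genes, 41.7% had a cluster. The 4 cholangiocyte markers (Krt19, Krt7, Sox9 and Spp1) and the stellate markers Col1a1, Col3a1 and Dcn had 0 clusters. Counts rise with the amount of a transcript as well as with the binding on it, and fewer cells of a type and less RNA per cell cannot be told apart here.

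The sequences of the alternative exons on which the results turn are given first, 5′ to 3′ in the sense of the gene, with any GCATG (the DNA form of the motif) in capitals. They were read from GENCODE transcripts on GRCm38. The first group holds a selection of exons that some annotated transcripts skip and that had a cluster within 300 nt or over them.
Ctnnd1 exon B (87 nt), chr2:84603188-84603274, minus strand: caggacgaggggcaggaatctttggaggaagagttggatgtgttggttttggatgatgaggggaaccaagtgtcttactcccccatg
Ctnnd1 exon C (18 nt), chr2:84612532-84612549, minus strand: atgagtggttctccagag
Tjp1 alpha exon (240 nt), chr7:65314093-65314332, minus strand: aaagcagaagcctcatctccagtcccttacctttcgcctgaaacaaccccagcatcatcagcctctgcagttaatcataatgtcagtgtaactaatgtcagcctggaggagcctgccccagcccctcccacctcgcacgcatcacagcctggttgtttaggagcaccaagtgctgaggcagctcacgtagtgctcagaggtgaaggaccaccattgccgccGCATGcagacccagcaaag
Cttn repeat exon (111 nt), chr7:144450978-144451088, minus strand: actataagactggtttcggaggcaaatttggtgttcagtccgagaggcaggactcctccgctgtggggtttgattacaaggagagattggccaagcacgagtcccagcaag
Afdn exon (45 nt), chr17:13825943-13825987, plus strand: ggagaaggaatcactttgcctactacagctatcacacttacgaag
Afdn exon (36 nt), chr17:13890963-13890998, plus strand: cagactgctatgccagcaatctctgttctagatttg
Myo18a exon (21 nt), chr11:77821530-77821550, plus strand: agccccttgaggagcaagacg
Myo18a exon (12 nt), chr11:77822663-77822674, plus strand: aagctgctgaag
Myo18a exon (15 nt), chr11:77823090-77823104, plus strand: agctggcagttgctg
Myo18a exon (45 nt), chr11:77854678-77854722, plus strand: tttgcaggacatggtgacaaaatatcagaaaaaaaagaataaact

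Only the Tjp1 exon of this group held GCATG within the exon itself. For comparison, exon A of Ctnnd1 and exon 11a of Enah, the latter known for its use in epithelial cells, had no cluster within 500 nt on either side.
Ctnnd1 exon A (63 nt), chr2:84605184-84605246, minus strand: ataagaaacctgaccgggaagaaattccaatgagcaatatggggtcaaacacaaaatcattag
Enah exon 11a (63 nt), chr1:181911597-181911659, minus strand: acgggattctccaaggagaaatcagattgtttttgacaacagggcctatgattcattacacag

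The next group is a selection of places where GCATG fell beside clusters outside these exons. Left out, among others, were the Ctnna1 sites at clusters of 75 and 43 counts. GCATG also lay within constitutive Cttn exons not shown, chr7:144452027-144452137 and chr7:144454676-144454786, which had clusters of 64 and 67 counts over them. The windows of the Cttn and Myo18a intronic clusters span the cluster and 50 nt on each side, and the 3′ UTR sites are cropped to 25 nt around the motif.
Cttn intron, cluster of 25 counts, chr7:144449615-144449715, minus strand: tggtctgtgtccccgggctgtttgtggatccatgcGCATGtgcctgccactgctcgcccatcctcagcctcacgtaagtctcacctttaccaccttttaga
Myo18a intron, cluster of 13 counts, chr11:77857552-77857659, plus strand: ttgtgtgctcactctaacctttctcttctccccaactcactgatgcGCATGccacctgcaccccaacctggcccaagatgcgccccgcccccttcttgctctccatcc
Enah 3′ UTR, beside the cluster of 104 counts, chr1:181905004-181905028, minus strand: agacaataatGCATGtcacactaat
Enah 3′ UTR, second site of the same cluster, chr1:181904859-181904883, minus strand: tcaattatctGCATGaattataatg
Cdh1 3′ UTR, beside the cluster of 62 counts, chr8:106669215-106669239, plus strand: ggaccactatGCATGctgcacacgt
Tjp1 3′ UTR, beside the cluster of 25 counts, chr7:65297140-65297164, minus strand: attttattatGCATGaggtaatgtg
Tjp1 3′ UTR, beside the cluster of 12 counts, chr7:65297405-65297429, minus strand: aggttagcgaGCATGcccctgagcc

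Every one of the 10 genes had clusters, from 9 in Enah to 114 in Myo18a, whereas 41.7% of the 22028 protein-coding genes in the annotation had at least 1. The genes were chosen with earlier results of these data known, so this and later contrasts with all genes cannot show a trait of junction genes. Across the 345 clusters, counts ran from 10 to 433 with a median of 19, and 18 clusters had the minimum of 10. The median of the 10 genes was 30 clusters and 645 summed counts, beside 3 clusters and 63 summed counts for protein-coding genes with a cluster. Per length of gene the gap was narrower, at a median of 4.94 summed counts per kb against 2.16. The part of transcript level in these sums was not tested.

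By summed count, Myo18a stood highest of the 10 with 4445 counts, followed by Cttn (1463), Ctnnd1 (938), Tjp1 (815), Ctnna1 (797), Afdn (493), Cdh1 (269), Ctnnb1 (248), Enah (236) and Vcl (222). Myo18a alone held 33.0% of the clusters and 44.8% of the counts of the set, and without it, a choice made after its values were seen, 231 clusters and 5481 counts remained. Per kb of gene, Myo18a (43.3 counts per kb) and Cttn (41.5) lay close together, Ctnnd1 followed at 18.5, and the other 7 ranged from 1.91 (Enah) to 7.92 (Ctnnb1). The order thus changed with length: Ctnnb1, a short gene, moved above Ctnna1, Cdh1, Tjp1 and Afdn, and Cdh1 moved above Tjp1 and Afdn. In all, 11 clusters of the set had at least 100 counts, 8 of them in Myo18a, 2 in Cttn and 1 in Enah. They made up 3.19% of the 345, where 1.73% of the clusters in all protein-coding genes reached that height.

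**Figure D1:**
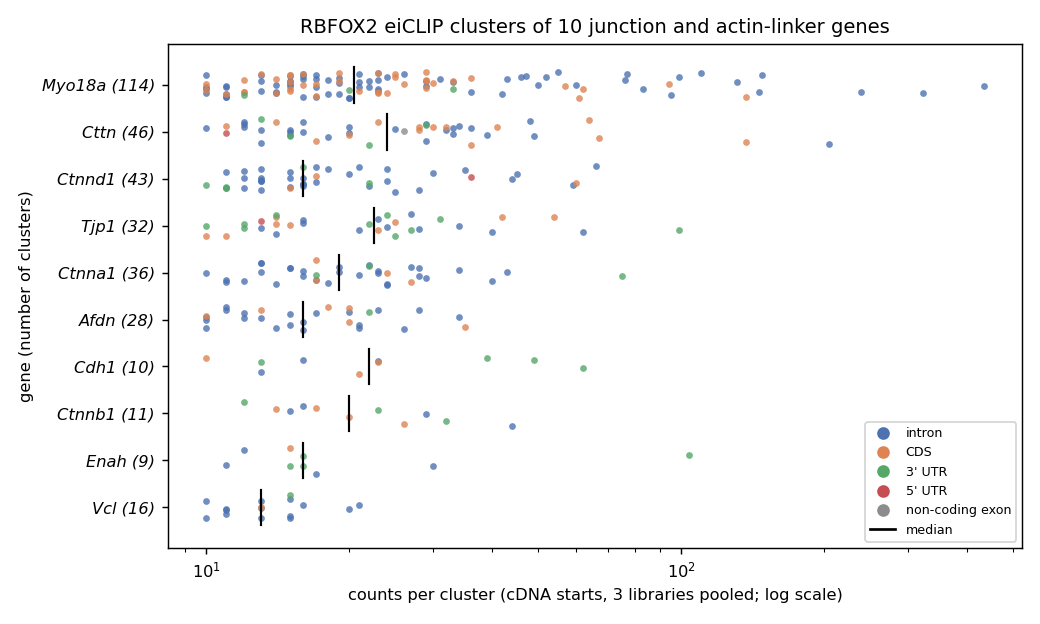
Counts of each of the 345 clusters, 1 point per cluster, by gene (vertical axis, number of clusters in brackets) on a log scale of counts (horizontal axis), coloured by annotation class, with the median of each gene as a black bar. Medians sit between 13 and 24 counts in all 10 genes, and the clusters above 100 counts belong to Myo18a, Cttn and Enah.

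The clusters of the 10 genes were mostly intronic. Introns held 218 of 345 clusters (63.2%, interval 58.0 to 68.1%), coding sequence 85 (24.6%, 20.4 to 29.4%) and 3′ UTRs 38 (interval 8.13 to 14.8%), with 3 clusters in 5′ UTRs and 1 in a non-coding exon. In all protein-coding genes the intronic share was 68.6%, just above the interval of the set, and the coding share was 14.6%, below it. Without Myo18a the intronic share was 63.6% (57.3 to 69.6%). Weighted by counts, introns held 65.6% in the set and 63.7% in all protein-coding genes, so the lower intronic share of clusters in the set was not seen in counts. Coding sequence held 23.3% of the counts in the set and 13.7% in all protein-coding genes, higher in the set by both measures. Most of the 85 coding clusters and their 2311 counts were in Myo18a (40 with 1103 counts) and Cttn (14 with 548). Coding clusters were 4 of 11 in Ctnnb1, 3 of 10 in Cdh1, 9 of 32 in Tjp1 and 6 of 28 in Afdn. They were 3 of 43 in Ctnnd1, 4 of 36 in Ctnna1, 1 of 16 in Vcl and 1 of 9 in Enah. The higher coding share thus was not confined to Myo18a and Cttn, but cannot be read as common to the 10 genes.

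The genes fell on both sides of this average. The share of intronic clusters was 87.5% in Vcl, 80.6% in Ctnna1, 79.1% in Ctnnd1 and 75% in Afdn, close to the average in Myo18a (62.3%) and Cttn (56.5%), and lower in Enah (44.4%), Tjp1 (37.5%), Ctnnb1 (36.4%) and Cdh1 (30%). In Enah and Cdh1 the 3′ UTR held most of the counts, 64.0% and 60.6%, and in Tjp1 33.9%. With 9 clusters in Enah, 10 in Cdh1 and 11 in Ctnnb1, the shares of these genes carry wide counting error.

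**Figure D2:**
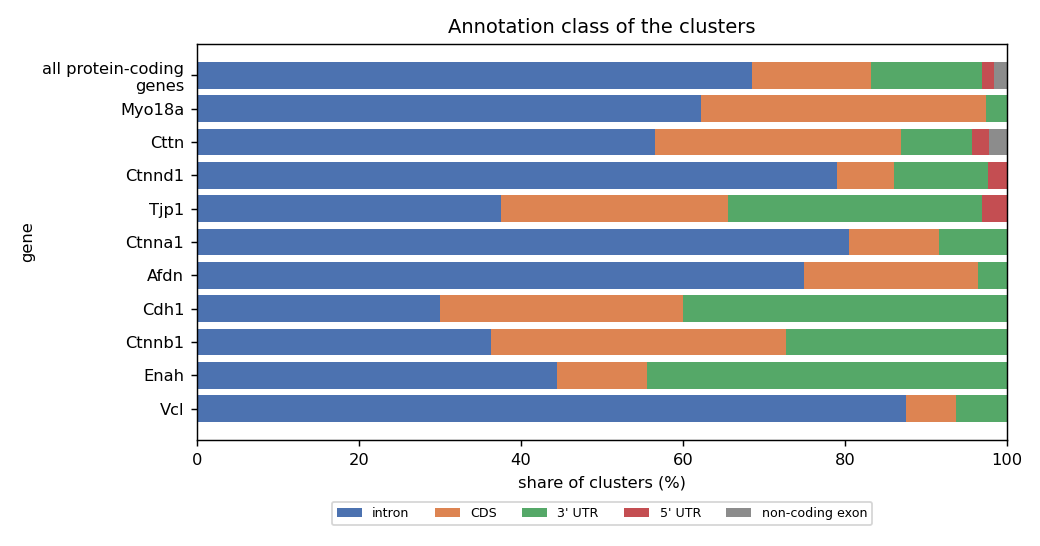
Share of clusters (horizontal axis, percent) in introns, coding sequence, 3′ UTR, 5′ UTR and non-coding exons for each of the 10 genes and for all protein-coding genes (top bar). Introns take from 30% in Cdh1 to 87.5% in Vcl.

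Among the 218 intronic clusters, 42 (19.3%, interval 14.6 to 25.0%) lay within 300 nt upstream of an exon and 45 (20.6%, 15.8 to 26.5%) within 300 nt downstream of one, measured from edge to edge. In all protein-coding genes these shares were 11.4% and 13.5%. Conversely, 119 clusters (54.6%, 48.0 to 61.1%) lay more than 500 nt and 34 (15.6%, 11.4 to 21%) more than 5000 nt from an exon, below the 72.2% and 30.8% of all protein-coding genes. The intronic clusters of the set were thus nearer to exons, with a median distance of 622 nt against 1714 nt, though part of this came from Myo18a. Without it, 22 of 147 lay within 300 nt on each side (10.1 to 21.6%) and 65.3% more than 500 nt away (57.3 to 72.5%), intervals that include the shares of all genes, while 21.8% lay more than 5000 nt away (15.9 to 29.1%), still below. Intron lengths differ between genes, and their part in these shares was not tested. Counting all classes, 71 clusters lay over or within 500 nt of an exon that some annotated transcript skips.

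Ctnnd1 encodes p120 catenin, which binds the tail of cadherins near the membrane and keeps them at the cell surface. The gene (ENSMUSG00000034101.14, chr2:84600071-84650765, minus strand) held 43 clusters with 938 counts, with values of 10, 16 and 66 as lowest, median and highest. A readthrough gene annotated on the same strand, Gm28635, overlaps it, so counts cannot be split between them. Its alternative exons A, B and C differed in the clusters around them.

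Exon B (87 nt, used by 9 annotated transcripts and skipped by 18) had a cluster of 60 counts over it, chr2:84603227-84603276. The intron upstream held clusters of 16, 13 and 21 counts at 103, 246 and 309 nt, and the intron downstream 1 of 16 counts at 175 nt. Exon B thus carried the second highest cluster of the gene on the exon itself. Around exon C (18 nt, used by 10 and skipped by 15), clusters of 13 and 66 counts lay 117 and 197 nt upstream and clusters of 45 and 13 counts lay 87 and 280 nt downstream. The cluster of 66 counts, chr2:84612747-84612840, was the highest of Ctnnd1, so this small exon was flanked on both sides. At exon A (63 nt, used by 20 and skipped by 7) the nearest clusters were 6999 nt upstream and 1449 nt downstream.

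A cassette exon of the 5′ UTR (118 nt, chr2:84626020-84626137, used by 11 and skipped by 16) was followed 32 nt downstream by a cluster of 12 counts and preceded at 465 nt by one of 25. The intron that precedes this exon, chr2:84626138-84649429, was the one with the most clusters in Ctnnd1, 18 with 406 counts over 23292 nt. Its highest, 59 counts at chr2:84634793-84634865, lay 8655 nt from the nearest exon, so a large share of the counts of the gene came from deep in an intron near its 5′ end. A cluster of 28 counts lay between the 153-nt exon (chr2:84620835-84620987) and the 536-nt exon (chr2:84619919-84620454), 235 nt past the former and 96 nt before the latter. Each of these exons is skipped by 1 annotated transcript and used by 24 and shares the cluster as a neighbour. A 72-nt exon, chr2:84622011-84622082, also skipped by 1, had a cluster of 17 counts over it.

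Ctnna1 encodes α-catenin, the protein through which the cadherin complex binds actin. The gene (ENSMUSG00000037815.7, chr18:35118859-35254779, plus strand) held 36 clusters and 797 counts, with values of 10, 19 and 75 as lowest, median and highest. Its highest cluster, 75 counts at chr18:35254402-35254466, lay in the 3′ UTR, and the next, 43 counts at chr18:35252475-35252538, lay in an intron 77 nt before the next exon. Both had GCATG in the window of the cluster and 50 nt on each side. A single intron, chr18:35182554-35214929, held 12 clusters and 282 counts with no cluster above 40. The annotated cassette exons of Ctnna1, 137 and 196 nt long, had no cluster within 500 nt, and the nearest were 1344 and 968 nt away.

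Ctnnb1 encodes β-catenin, which joins E-cadherin to α-catenin and is also the transcriptional effector of Wnt signalling. It held 11 clusters and 248 counts (ENSMUSG00000006932.17, chr9:120929216-120960507, plus strand), with 12, 20 and 44 counts as lowest, median and highest. All 4 intronic clusters lay in the same intron, chr9:120933962-120950172, with 104 counts, among them the highest, 44 counts at chr9:120947054-120947108. Coding exons held 4 clusters and the 3′ UTR 3, the largest of those 32 counts at chr9:120960080-120960106. No cassette exon is annotated for Ctnnb1, and none of its 6 constitutive exons had an intronic cluster within 300 nt.

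Cdh1 encodes E-cadherin itself. The gene (ENSMUSG00000000303.12, chr8:106603351-106670246, plus strand) held 10 clusters and 269 counts, of which 4 clusters and 60.6% of the counts were in the 3′ UTR. Its 3 highest clusters were all there, 62 counts at chr8:106669168-106669202, 49 at chr8:106670112-106670115 and 39 at chr8:106668857-106668861, while the 3 intronic clusters had 13, 16 and 23 counts. The GCATG beside the cluster of 62 counts began 57 nt past its first base, as shown above. None of its 13 constitutive exons had an intronic cluster within 300 nt, and no cassette exon is annotated. The cadherin and β-catenin thus differed from the other catenins of the set, whose clusters were mostly intronic.

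Tjp1 encodes ZO-1, a scaffold of the tight junction that links claudins and occludin to actin. It held 32 clusters and 815 counts (ENSMUSG00000030516.14, chr7:65296165-65527781, minus strand), with 10, 22.5 and 99 counts as lowest, median and highest. The 3′ UTR held 10 clusters, and the highest of the gene, 99 counts at chr7:65297052-65297080, was among them, without GCATG in its window. Lower clusters of the same 3′ UTR, with 25 and 12 counts, had it. The alpha exon (240 nt, used by 1 annotated transcript and skipped by 2) had a cluster of 62 counts 158 nt downstream, chr7:65313864-65313934, the second highest of Tjp1. Upstream of the exon the nearest cluster was 970 nt away with 34 counts. The GCATG inside the alpha exon lay toward its 3′ end, and no cluster was over the exon.

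Afdn encodes afadin, which joins nectins to actin at the adherens junction. Its 28 clusters with 493 counts (ENSMUSG00000068036.15, chr17:13760539-13906150, plus strand) were low, with 10, 16 and 35 counts as lowest, median and highest. The highest, chr17:13888871-13888887, was in coding sequence and the next, 34 counts at chr17:13899907-13899929, in an intron 679 nt past an exon. The cassette exons of 45 nt (used by 3 and skipped by 3) and 36 nt (used by 2 and skipped by 4) each had clusters downstream and none within 500 nt upstream. Past the 45-nt exon there were 26 counts at 153 nt and 15 at 453 nt, and downstream of the 36-nt exon 21 counts at 192 nt. A 21-nt exon, chr17:13848355-13848375, used by 1 transcript, had its nearest cluster 693 nt downstream.

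Vcl encodes vinculin, which reinforces the bond of α-catenin with actin under tension. It held 16 clusters with 222 counts (ENSMUSG00000021823.10, chr14:20929398-21033676, plus strand), the lowest sum of the 10 genes, with 10, 13 and 21 counts as lowest, median and highest. Its first annotated intron, chr14:20929689-20967537, held 9 of them with 122 counts, none above 16. The 2 highest were also intronic, 21 counts at chr14:21026121-21026134 and 20 at chr14:20999573-20999676. The exon of metavinculin, the muscle form (204 nt, chr14:21029176-21029379), had no cluster over it, and the nearest were 1276 nt upstream with 10 counts and 3285 nt downstream with 15. This exon was used by 1 spanning transcript and skipped by 0, so it was not classed as a skipped exon.

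Enah encodes a protein of the Ena/VASP family that lengthens actin filaments. It had the fewest clusters, 9 with 236 counts (ENSMUSG00000022995.16, chr1:181896384-182019990, minus strand), and 44.1% of the counts were in the highest, 104 at chr1:181904871-181905019. That cluster was in the 3′ UTR, was 149 nt wide and had GCATG close to its first and its last bases, beginning 1 and 146 nt from its 5′ end. The other 8 clusters of Enah had 11 to 30 counts. Around exon 11a (63 nt, used by 1 annotated transcript and skipped by 7) the nearest clusters were 8262 nt upstream, with 17 counts, and 6361 nt downstream, with 16. A 12-nt cassette exon, chr1:181931174-181931185, had its nearest cluster 550 nt upstream, chr1:181931736-181931778, with 30 counts. The 4 cassette exons of Enah had no cluster within 500 nt.

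Cttn encodes cortactin, which binds branched actin through a row of repeats, several of them encoded by an exon each. It held 46 clusters and 1463 counts (ENSMUSG00000031078.15, chr7:144435733-144471009, minus strand), with 10, 24 and 205 counts as lowest, median and highest. Of its exons, 5 were 111 nt long, and 1 of these, chr7:144450978-144451088, is annotated as skipped (by 2 transcripts, and used by 1). All 5 had clusters over them, with 31 counts over the skipped exon and 17, 67, 78 and 137 over the others. The skipped exon had clusters of 39 and 36 counts 185 and 434 nt downstream and 1 of 13 counts 280 nt upstream. The intron that follows it, chr7:144449616-144450977, was only 1362 nt long and held 8 intronic clusters with 382 counts. Among them was the highest of the gene, 205 counts at chr7:144449809-144449868, 1109 nt past the skipped exon and 193 nt before the next one. The second highest, 137 counts at chr7:144452520-144452697, covered the whole of a constitutive repeat exon, chr7:144452548-144452658, and its splice sites.

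**Figure D3:**
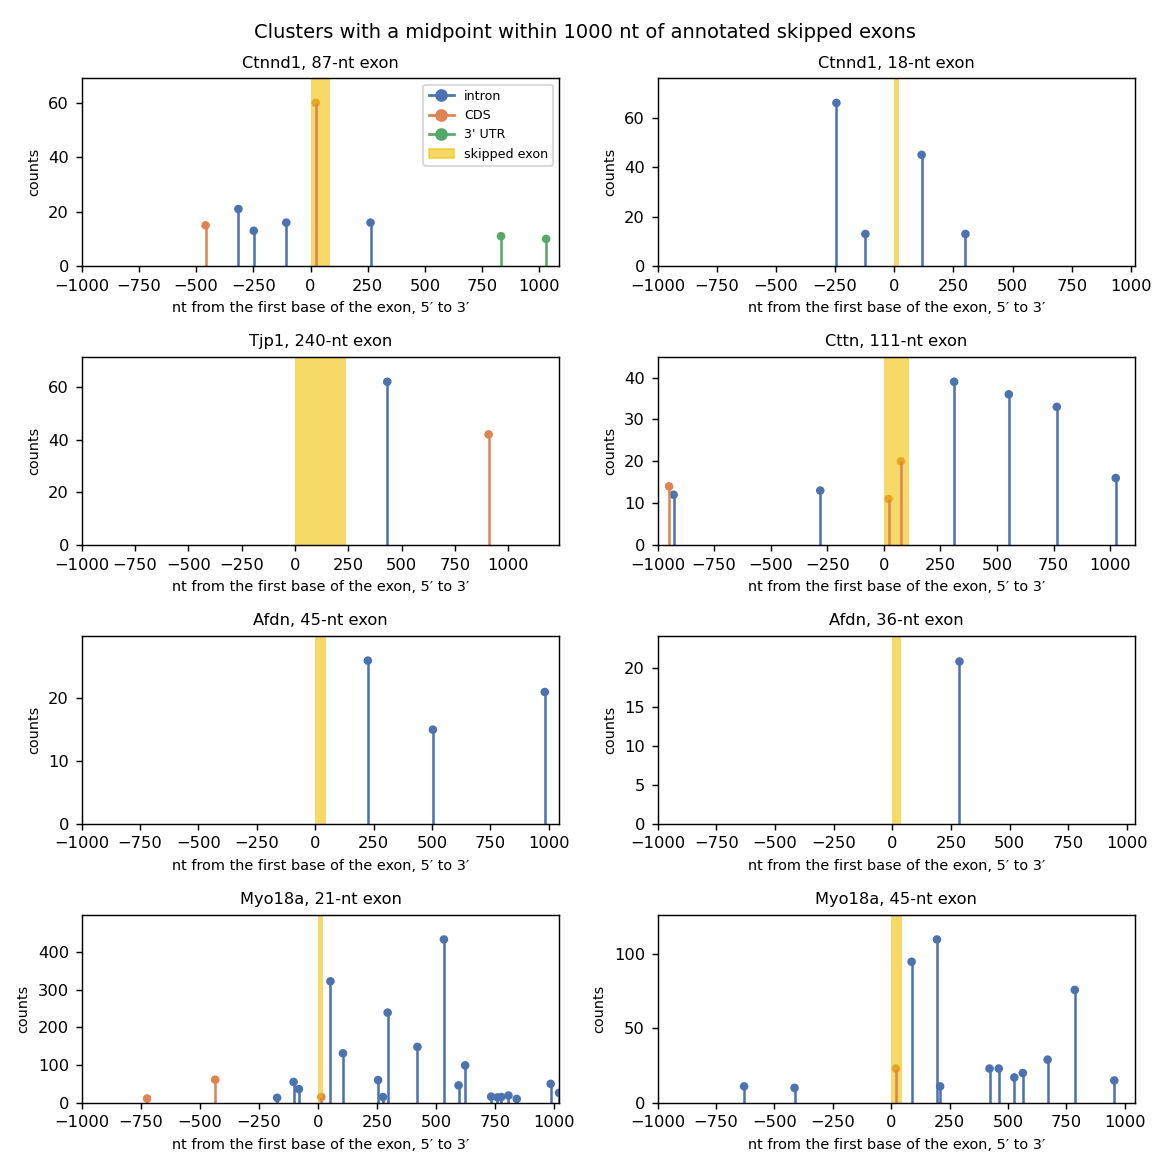
Clusters with a midpoint within 1000 nt of 8 skipped exons, with counts per cluster (vertical axis, scaled for each panel) against distance from the first base of the exon in the direction of transcription (horizontal axis, nt), and the exon as a yellow band. Ctnnd1 exons have clusters on both sides, while the Tjp1 and Afdn exons have them downstream, with 62 counts beside the Tjp1 exon.

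Myo18a encodes an unconventional myosin that binds actin and lacks the usual motor activity. The gene (ENSMUSG00000000631.20, chr11:77763246-77865980, plus strand) ranked 51 of 10744 by summed count, with 114 clusters, 4445 counts and values of 10, 20.5 and 433 as lowest, median and highest. Its counts were concentrated around skipped microexons. The stretch from 500 nt before its 21-nt exon to 500 nt after its 15-nt exon, chr11:77821030-77823604, was 2.51% of the gene and held 30 clusters and 2257 counts, 50.8% of the counts of the gene. This stretch was chosen after its values were seen. Inside it were 876.5 counts per kb of gene, against 21.9 in the rest, where 84 clusters held 2188 counts.

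The 21-nt exon, used by 1 annotated transcript and skipped by 13, had 5 clusters with 767 counts in the 300 nt downstream and 3 with 13, 55 and 36 counts in the 300 nt upstream, and over the exon itself 15 counts. The nearest downstream cluster, 322 counts at chr11:77821577-77821588, began 26 nt past the exon. It was followed by 131, 60, 15, 239 and 148 counts at 82, 232, 254, 264 and 399 nt, and by the highest cluster of the 10 genes, 433 counts at chr11:77822047-77822078, 496 nt past the exon. The counts downstream of this exon exceeded those upstream in both the 300-nt and the 500-nt windows (1348 against 165 in the wider one, of which 61 upstream were in a coding exon). Further on, the 12-nt exon (used by 11 transcripts and skipped by 2, with a 9-nt form that shares its 3′ end) had 137 counts over it. Within 300 nt it had 163 in 4 clusters upstream and 162 in 4 downstream, nearly even. In wider windows the upstream side was higher, with 227 against 186 counts in 500 nt and 1267 against 220 in 1000 nt. The clusters past the 21-nt exon lie in the intron before the 12-nt exon, the one of 433 counts 584 nt before it. The 15-nt exon (used by 1 and skipped by 13) had 5 clusters with 186 counts upstream and no intronic cluster in the 300 nt downstream, where a cluster of 19 counts lay in the next coding exon. These 2 exons are close enough that the clusters between them count for both.

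Clusters of this stretch were narrow, with a median width of 3 nt, and 18 of its 30 were 5 nt wide or less. In the set as a whole 80 of 345 clusters (23.2%) were that narrow, and in the list 26.7%. The intronic sequence there is not part of an annotated transcript and was not analysed here. The 3 highest clusters of the stretch were wider, at 32, 12 and 20 nt, and the part of cluster width in its counts was not tested.

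A second group of clusters of Myo18a lay downstream of a 45-nt exon, chr11:77854678-77854722, used by 4 transcripts and skipped by 11. The intron after it, chr11:77854723-77857722, held 21 clusters and 794 counts over 3000 nt. The nearest were 95 counts at 20 nt (chr11:77854743-77854788) and 110 at 148 nt (chr11:77854871-77854877), while no cluster lay in the 300 nt upstream and 1 of 10 counts 404 nt upstream. Clusters of 11, 23, 23 and 17 counts followed at 164, 376, 412 and 482 nt. As for the 21-nt exon, the clusters stood mainly on the downstream side. At the far end of the same intron, 136 nt before the next exon, was a cluster of 146 counts (chr11:77857516-77857586), and GCATG began 11 nt after its 3′ end, in the window shown above for the neighbouring cluster of 13 counts. The 3′ UTR of Myo18a held 3 of its clusters, and coding sequence 40. Of its other skipped exons, the 154-nt exon had an intronic cluster of 15 counts 312 nt downstream, the 183-nt exon, which has a longer form, 1 of 23 counts 364 nt upstream and the 36-nt exon 1 of 10 counts 32 nt upstream. The clusters beside or over the rest, among them the exons of 88, 107, 177 and 111 nt, were in coding sequence, with at most 30 counts each.

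Over the set, exons that some transcripts skip had an intronic cluster beside them more often than exons that all transcripts use. A cassette exon here is an internal exon of a protein-coding transcript that at least 1 spanning transcript skips and that has a single pair of ends. A constitutive exon is used with the same ends by every spanning transcript, where more than 1 transcript spans it. Downstream, 9 of 29 cassette exons (31.0%, interval 17.3 to 49.2%) and 13 of 147 constitutive exons (8.84%, 5.24 to 14.5%) had a cluster midpoint within 300 nt, and these intervals did not overlap. Upstream the values were 5 of 29 (17.2%, 7.60 to 34.5%) and 12 of 147 (8.16%, 4.73 to 13.7%), with overlapping intervals. In all protein-coding genes with a cluster, 7.36% of cassette and 4.63% of constitutive exons had one downstream, and 6.18% and 3.94% upstream.

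Since the 10 genes hold many clusters, genes with at least 9, the lowest number in the set, are a closer reference, chosen after the values were seen. In those genes the downstream shares were 13.9% of cassette and 7.96% of constitutive exons, and the upstream shares 11.4% and 6.59%. This reference matches only the minimum of the set, whose median was 30 clusters per gene. The part of cluster number in the contrasts with it was not tested. The downstream share of the cassette exons in the set lay above that reference, its interval beginning at 17.3%, whereas the upstream share and both constitutive shares had intervals that included theirs. Without Myo18a, 7 of 18 cassette exons (38.9%) had a cluster downstream and 3 (16.7%) upstream, against 7.08% of 113 constitutive exons on each side. Among clusters in the top 10% of counts the cassette shares of the set fell to 13.8% downstream and 6.90% upstream. No constitutive or reference share was computed under that filter, so these values cannot be set beside the shares above. The 9 cassette exons with a downstream cluster belonged to Ctnnd1 (3), Afdn (2), Myo18a (2), Tjp1 (1) and Cttn (1), and the 5 with an upstream one to Ctnnd1 (2), Myo18a (2) and Cttn (1). Enah and Ctnna1, with 4 and 2 cassette exons, had none on either side. Neighbouring exons share introns and clusters, so exons are not independent and no test was made over them.

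**Figure D4:**
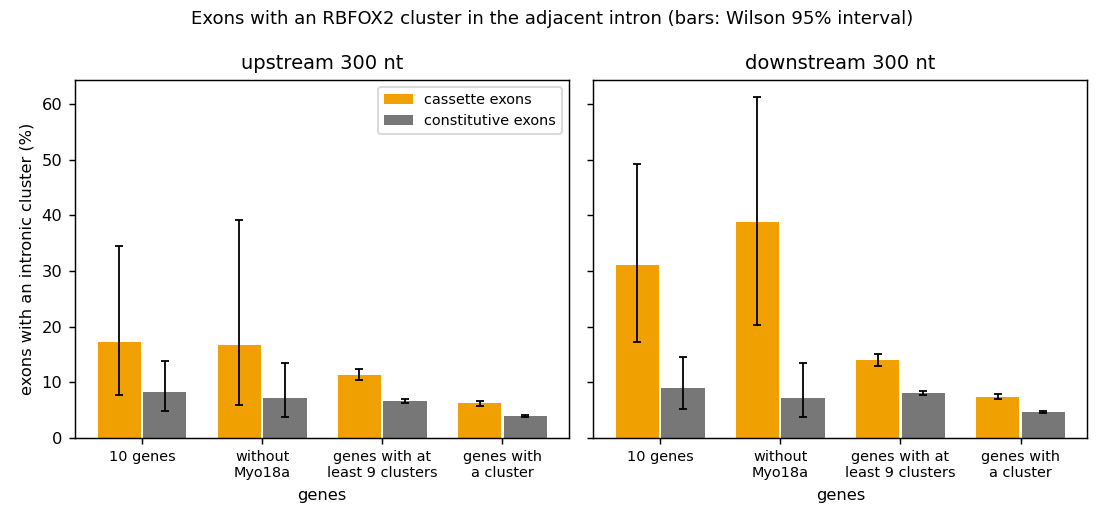
Share of exons (vertical axis, percent) with an intronic cluster midpoint in the 300 nt upstream (left) or downstream (right), for cassette and constitutive exons of the 10 genes, the same without Myo18a, genes with at least 9 clusters and all genes with a cluster, where error bars are Wilson 95% intervals. Downstream of cassette exons the set reaches 31.0%, against 13.9% in genes with at least 9 clusters.

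Cassette exons whose length is a multiple of 3 leave the reading frame of coding sequence unchanged when they are skipped. Of 19 such exons in the set, 9 had a cluster on either side (47.4%, interval 27.3 to 68.3%), and of the 10 others, 2 did (20%, 5.67 to 51%). In genes with at least 9 clusters the shares were 24.2% and 17.7%, so the first lay below the interval of the set and the second inside it. By size, 5 of 9 cassette exons of at most 51 nt (26.7 to 81.1%) and 6 of 20 longer ones (14.6 to 51.9%) had a cluster, with 32.3% and 19.1% in those genes, both inside the intervals. These numbers of exons are small and the differences between the classes were not tested.

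GCATG was searched on the sense strand in windows of each cluster with 50 nt on each side, where annotated exons covered the whole window, which left 69 of the 345. It was found in 10 (14.5%, interval 8.07 to 24.7%), beside 20.3% of 18172 windows in all protein-coding genes, a value inside that interval. Of the 69, 8 were intronic and 3 of those had it, and 7 of 61 exonic ones had it. The 10 windows belonged to Tjp1 (3), Ctnna1 (2), Myo18a (2), Cdh1, Enah and Cttn. The reverse complement CATGC, searched for comparison, was in 13.0% of the same windows, and it overlaps GCATG wherever the letters GCATGC occur. In all, 164 windows had at least part of their sequence, and 18 held GCATG in the covered part, the 10 among them. No such number was computed for all genes. Windows of clusters in most introns, including those of Ctnnd1, Vcl and Afdn beside the exons above, had no sequence here and say nothing of the motif.

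The other genes of junctions and actin links, 69 in a list chosen with earlier results of these data known, had clusters in 61 cases (88.4%), where 41.7% of protein-coding genes did. Clusters were present in 13 of 14 adherens junction genes, 15 of 18 tight junction genes, 6 of 7 of desmosomes and gap junctions, 19 of 22 actin linkers and all 8 motors. The median was 14 clusters and 228 counts, below the 30 and 645 of the 10 genes. The highest sums were those of Myh9 (4722 counts in 171 clusters), a non-muscle myosin heavy chain, Svil (3544 in 117), which encodes supervillin, Myo9b (2811 in 75), Actn1 (2808 in 93), an α-actinin, and Sptan1 (2381 in 93), an α-spectrin. Myo18a, with 4445, would stand second among them, and Cttn, with 1463, below all 5. The 8 genes without a cluster were Arvcf, Tjp3, Cldn2, Pard6b, Gja1, Evl, Ezr and Add3, which shows only that no cluster of 10 counts was called there.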

How the data were processed

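RBFOX2 eiCLIP was performed in 3 libraries of primary mouse hepatocytes. As described for the study, the authors trimmed adaptors with cutadapt, aligned reads to GRCm38 with STAR 2.4.2a (the version given in the submitters' processing notes, which also name CASAVA 1.8.4), removed duplicates by position and random barcode, and grouped cDNA starts into clusters with Paraclu. The deposited value is a whole-number count per cluster, pooled by the authors over the 3 libraries, not normalised and with no input stated to be subtracted. That the counts are cDNA starts was taken from their values and the methods. The total, 2850863, covers clusters only, so the depth per library is unknown.

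Clusters were placed by midpoint on GENCODE M21 (GRCm38) on their strand. Coding sequence took precedence over UTRs (3′ before 5′), these over non-coding exons, and any exon over introns, where retained-intron transcripts were not counted as exons. The authors named an earlier release. Distances are the bases between the edges of a cluster and an exon, and shares beside exons used midpoints in the adjacent 300 nt. Exons called exon A, B, C, alpha, 11a and metavinculin were matched by length alone. Text names all 10 genes, their 2 highest clusters, intronic clusters within 500 nt of cassette exons (around the 12-nt and 15-nt Myo18a exons as sums), clusters of at least 100 counts, and the 5 listed genes with the highest sums. The genes, lists and exons were chosen with earlier results of these data known. Sequences came from annotated transcripts. The placing of intronic clusters beside exons was tested on simulated clusters, and all 1861 that were called intronic were recovered. The class calls themselves were not tested. Python 3.11.15, numpy 2.4.6, pandas 2.3.3, scipy 1.17.1 and matplotlib 3.10.9 were used. Alternatives changed the count filter, narrow clusters, merging, overlap rule, annotation rule, exon definition, intron window, motif and sequence window.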

Additional observations from a re-analysis of the deposited data

Results flagged for a closer look

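Within the spans of the 10 genes, 3 clusters with 34 counts in all lay on the strand opposite to the gene, data that the comparisons did not use. There was a cluster of 13 counts in Ctnnb1, another of 11 in Vcl and another of 10 in Enah, against 345 clusters on the strand of the genes.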

How the results depend on the processing

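No paired analysis was possible because the 3 libraries form a single group and were pooled before clusters were called, and for the same reason no library could be left out. Of 55 alternatives over 9 results, 43 kept the value within 1.5 times for counts or within its counting interval for shares, and 12 moved it. Each result is a single value without a direction. Constitutive shares were not recomputed under the count and width filters, so their contrast with cassette exons was not tested there. Keeping clusters at or above the median count of the list left 196 clusters. Keeping the top 10% left 51 clusters, 4442 counts and 33 genes of the junction list with a cluster, and cassette exon shares of 13.8% downstream and 6.90% upstream, while GCATG was in 50% of only 8 windows. Without Myo18a, added after the values were seen, the summed count was 5481. GCATG was found in 26.3% of 57 windows with 100 nt added on each side, and the longer TGCATG in 5.80%. With intron windows of 1000 nt, constitutive shares rose to 23.1% downstream and 19.1% upstream, as wider windows take in more clusters. The cause of the other moves was not tested beyond the fewer clusters or windows used. The minimum of 10 counts and the unknown depth limit what the absence of a cluster shows.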
